A study of Mus musculus with 11 samples.

Results

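Reln, Adam19, Fam63b and Edem3 are 4 of the 23071 genes in a table of RNA levels from normal and leukemic mouse B lineage cells. They were chosen by their measured mean level, which falls from wild-type progenitors to progenitors with 1 functional copy of Ebf1 and falls again to leukemia. The order of the 3 group means is therefore given and is not a finding. The levels below describe its size, its spread and what the genes share, and no test is given for it.

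RNA was sequenced in 11 libraries from C57BL/6 mice. Wild-type progenitor B cells (3 libraries) and Ebf1+/- progenitor B cells (3 libraries) were isolated on columns from bone marrow, each library from a pool of 3 to 7 mice. The 5 leukemia libraries held Pax5+/- x Ebf1+/- leukemic B cells of 1 mouse each, taken as lymph node cell suspensions and flash frozen. All leukemias carry the Ebf1 heterozygous genotype of the second group together with a heterozygous Pax5 genotype. Genotype, leukemic state, tissue and cell purification change together between the progenitors and the leukemias, and their parts cannot be told apart. Levels are FPKM, fragments per kilobase of gene scaled to the reads counted in a library, which corrects for gene length and sequencing depth.

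Ebf1 and Pax5 are transcription factors that set and hold the B cell programme, and mice that lose a copy of each are prone to B cell leukemia. The 4 genes act in different compartments. Reln encodes reelin, a large secreted glycoprotein known for positioning neurons, which binds the receptors VLDLR and LRP8 and signals through the adaptor DAB1 and Src family kinases. Adam19 encodes a membrane-anchored metalloprotease that sheds surface proteins such as neuregulins. Fam63b, now called Mindy2, encodes a deubiquitinase that trims lysine-linked ubiquitin chains. Edem3 encodes a mannosidase of the endoplasmic reticulum that trims misfolded glycoproteins and so marks them for degradation.

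The genes lie on 4 chromosomes (GRCm38, GENCODE M21): Reln on chromosome 5 at 21884454 to 22344702, minus strand; Adam19 on chromosome 11 at 46055992 to 46147343, plus strand; Fam63b on chromosome 9 at 70599014 to 70657174, minus strand; and Edem3 on chromosome 1 at 151755371 to 151822051, plus strand. Bases just before the RefSeq start (GRCm38.p6) are shown so that a reader can see whether letters of B lineage factors stand there. The genes share a fall because they were chosen for it, which is no sign of shared control. Each stretch begins 250 bases before the start and stops ahead of any annotated exon: Reln chr5:22344706-22344955 (minus strand), Adam19 chr11:46055734-46055957 and Edem3 chr1:151755124-151755343 (both plus strand). All read 5′ to 3′, and capitals mark matches to the motifs searched.
Reln: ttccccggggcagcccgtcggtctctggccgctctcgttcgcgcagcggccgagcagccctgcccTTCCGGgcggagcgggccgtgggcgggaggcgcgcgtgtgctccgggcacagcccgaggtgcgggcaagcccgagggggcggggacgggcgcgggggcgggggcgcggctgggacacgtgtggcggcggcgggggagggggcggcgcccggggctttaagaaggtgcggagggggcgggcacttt
Adam19: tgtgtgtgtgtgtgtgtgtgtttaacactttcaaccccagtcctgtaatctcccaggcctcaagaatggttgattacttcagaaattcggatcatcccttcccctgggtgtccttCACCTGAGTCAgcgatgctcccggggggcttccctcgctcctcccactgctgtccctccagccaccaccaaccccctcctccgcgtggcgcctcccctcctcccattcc
Edem3: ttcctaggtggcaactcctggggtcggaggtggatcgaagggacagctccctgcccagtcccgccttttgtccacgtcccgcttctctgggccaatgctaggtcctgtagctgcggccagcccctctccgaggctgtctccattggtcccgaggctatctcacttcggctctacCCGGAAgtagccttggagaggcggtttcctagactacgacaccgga
The Reln and Edem3 capitals are the ETS letters CCGGAA, which read TTCCGG on the other strand, at position -185 in Reln and -76 in Edem3. The Adam19 capitals join an E-box (CAGGTG, here on the other strand) at -135 and an AP-1 match (TGANTCA) at -131, which overlap.

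Over the full 250 bases, CCGGAA also stood in Fam63b at -249 and a second time in Edem3 at -35, so that 3 of the 4 windows held it. The Fam63b window lies within exons of RefSeq model transcripts that start further upstream, and its letters are therefore not shown. CCGGAA was present in 12% of 32817 RefSeq windows of the same length. Those windows were not matched for G and C content, and CCGGAA holds a CpG, so the shares cannot be compared directly. CAGGTG stood in 17.2% of windows and TGANTCA in 6.75%. The EBF1 motif (TCCC, any 2 bases, GGGA), searched like the others on both strands, stood in none of the 4 windows and in 0.78% of all. Likewise none of the 4 held CAGCTG (13.0% of all), the Ikaros letters TGGGAA (21.6%), the Runx letters TGTGGT (14.0%) or the unfolded protein response letters TGACGTG (1.65%). The windows were rich in G and C at 80% for Reln, 73.2% for Fam63b, 63.2% for Edem3 and 60% for Adam19, beside a median of 52.4%. They differed widely in CpG sites, with 37 in Reln, 34 in Fam63b, 16 in Edem3 and 7 in Adam19 beside a median of 6. A match is a run of letters and does not show binding.

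The libraries held 8.51 to 15.31 counted reads in units of 1e6. Mean Pax5 was 222.5 FPKM in wild type, 178.9 in Ebf1+/- and 119.1 in leukemia, and mean Ebf1 was 99.1, 71.2 and 66.6. By library, Ebf1 was at 111.5, 102.3 and 83.4 FPKM in wild type and 83.6, 86.5 and 43.4 in Ebf1+/-. Pax5 was at 312.4, 175.4 and 179.7 FPKM in wild type and 254.2, 193.4 and 89.0 in Ebf1+/-. For both genes these 2 groups overlapped, and Ebf1+/- library 3 was the lowest. By limma, both were lower in leukemia than in wild type (adjusted p = 0.0338 for Pax5 and 0.0132 for Ebf1; 0.0704 and 0.0631 with all 3 groups in 1 fit), and neither passed in Ebf1+/- against wild type (adjusted p = 0.81 and 0.717). The closest of the 55 pairs of libraries was wild-type library 2 with Ebf1+/- library 2 (r = 0.989 across genes), closer than any pair within a group. Each step is therefore also given without these 2 libraries. Per the submitters' notes, other alignment tools were listed for the Ebf1+/- libraries than for the rest, and a difference in alignment cannot be told apart from the Ebf1+/- group.

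Reln had the steepest fall. Its level was 17.4, 8.71 and 16.0 FPKM in the wild-type libraries and 0.497, 0.534 and 0.808 in Ebf1+/-. In leukemia it was 0.0201, 0.00653, 0, 0.0198 and 0.00597 FPKM. These values rest on 2253, 1208 and 2716 reads in wild type, on 89, 70 and 119 in Ebf1+/-, and on 2, 1, 0, 3 and 1 in the leukemias. The groups were far apart: the lowest wild-type library stood 10.8-fold above the highest Ebf1+/- library, and the lowest Ebf1+/- library at least 16.5-fold above the leukemias, taking each at no less than 3 reads. Every leukemia library was at or under 3 reads, the limit that a count of 0 allows, so their order among themselves is not resolved.

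Mean Reln was 14 ± 4.66 FPKM for wild type (SD, n = 3) and 0.613 ± 0.17 for Ebf1+/- (n = 3), which is 4.37% of wild type. Pooled over libraries, 6177 wild-type and 278 Ebf1+/- reads gave a ratio of 23.2 (95% interval 20.6 to 26.3). Pooled leukemia reads numbered 7, and the wild-type level was 1444 times theirs, with an interval of 700.4 to 3593. These intervals cover counting error only and leave out the spread between libraries, which is wider. PCR copies of a molecule, counted as separate reads, make them too narrow even for counting error. Without the libraries numbered 2, wild type over Ebf1+/- was 25.6, and between these 2 libraries alone it was 16.3. In bulk RNA, fewer cells that make a transcript and less transcript per cell cannot be told apart.

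Adam19 was abundant in wild type and varied most in leukemia. It stood at 64.8, 32.8 and 45.5 FPKM in wild type and at 12.1, 14.7 and 10.6 in Ebf1+/-. The leukemias held 0.237, 0.414, 0.4, 0.036 and 3.82 FPKM. Library 5 stood 9.22-fold above the next leukemia, yet under the lowest Ebf1+/- library by 2.78-fold, so the groups did not overlap. These values rest on 13, 35, 32, 3 and 353 reads, so that library 4 is at the limit that a count of 0 allows. Apart from library 4 the leukemias spanned 16.1-fold, against 1.97-fold within wild type and 1.38-fold within Ebf1+/-.

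Mean Adam19 was 47.7 ± 16.1 FPKM for wild type (SD, n = 3), 12.5 ± 2.05 for Ebf1+/- (n = 3) and 0.982 ± 1.59 in leukemia (n = 5). The ratio of wild type to Ebf1+/- was 3.83, and it was 4.86 without the libraries numbered 2 and 2.24 between those 2 alone. The ratio of Ebf1+/- to leukemia was 12.7, and leukemia library 5 decided it: without that library it was 45.8, and wild type over leukemia went from 48.6 to 175.5.

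**Figure D1:**
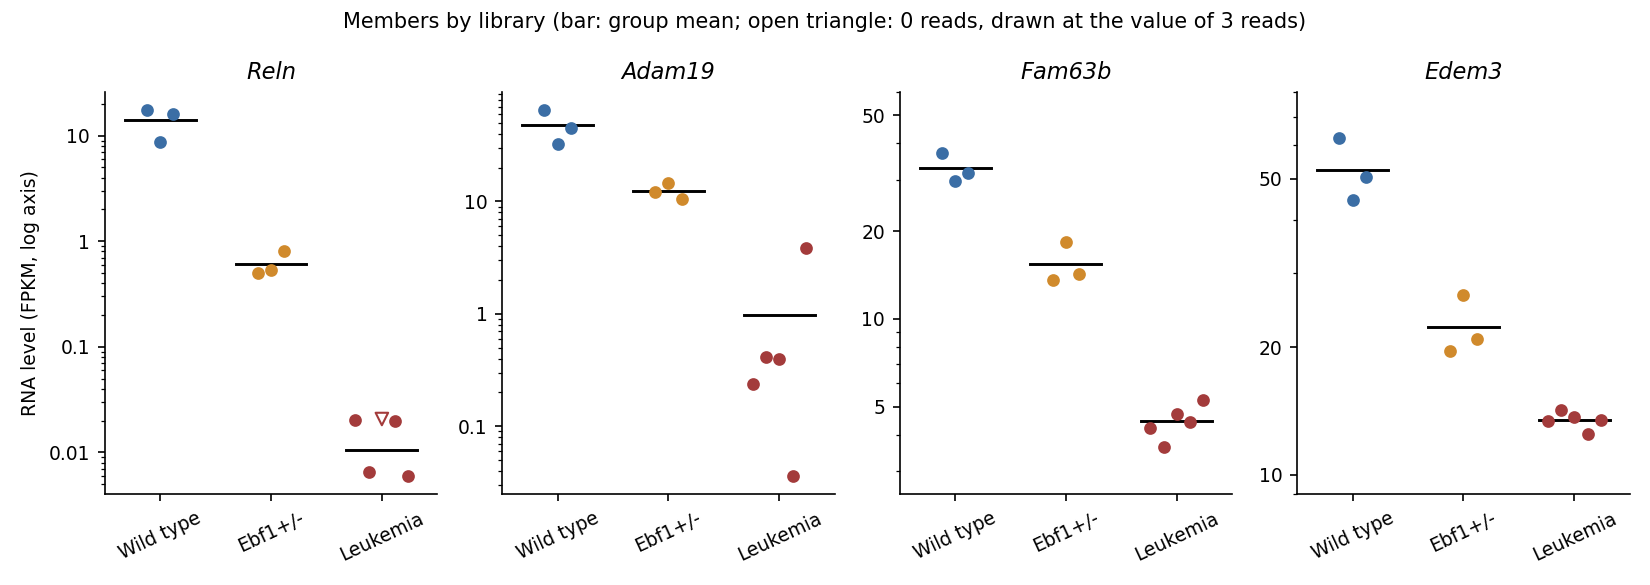
FPKM (log axis, separate for each gene) of Reln, Adam19, Fam63b and Edem3 in each of the 11 libraries, in order of replicate number within a group; bars are group means and the open triangle is the leukemia library with 0 Reln reads, drawn at the value of 3 reads. The groups do not overlap for any of the 4 genes, and Adam19 in leukemia library 5 (3.82 FPKM) stands apart from the other 4.

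Fam63b fell at each step, by 2.13-fold and then 3.46-fold in mean. It was at 37.1, 29.6 and 31.7 FPKM in wild type and at 13.6, 18.3 and 14.3 in Ebf1+/-. The leukemias held 4.23, 3.63, 4.72, 4.41 and 5.25 FPKM, within 1.45-fold of each other. The groups were 1.62-fold apart at their nearest libraries in the first step and 2.59-fold in the second.

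Mean Fam63b was 32.8 ± 3.85 FPKM for wild type (SD, n = 3), 15.4 ± 2.52 for Ebf1+/- (n = 3) and 4.45 ± 0.6 in leukemia (n = 5). Ebf1+/- cells thus held 47.0% of the wild-type level and leukemias 28.9% of the Ebf1+/- level. Wild type over Ebf1+/- was 2.13, or 2.46 without the libraries numbered 2, and between these 2 it was 1.62.

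Edem3 had the highest mean of the 4 in every group and, from wild type to leukemia, the smallest fall in mean, at 3.89-fold. Its level was 62.2, 44.4 and 50.4 FPKM in wild type and 19.6, 26.5 and 20.9 in Ebf1+/-. In leukemia it was 13.4, 14.2, 13.7, 12.5 and 13.5 FPKM. The leukemias were tight, with a highest value 1.14-fold above the lowest, and the nearest libraries of Ebf1+/- and leukemia were 1.38-fold apart.

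Mean Edem3 was 52.3 ± 9.09 FPKM for wild type (SD, n = 3), 22.3 ± 3.66 for Ebf1+/- (n = 3) and 13.5 ± 0.622 in leukemia (n = 5). Most of its fall lay in the first step, at 2.34-fold, with 1.66-fold in the second. The first step was 2.78-fold without the libraries numbered 2 and 1.68-fold between them, and the second was 1.5-fold without Ebf1+/- library 2.

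The order of the 4 levels, which FPKM puts on a scale per length, changed between groups. In wild type Edem3, Adam19 and Fam63b overlapped as neighbours, and Reln was under all of them. In Ebf1+/- Edem3 stood above Fam63b, Fam63b overlapped Adam19, and Reln was lowest. In leukemia Edem3 stood above Fam63b, the Adam19 value of library 5 (3.82 FPKM) exceeded the lowest Fam63b value (3.63 FPKM), and Reln stood below all Adam19 values. Adam19 and Edem3, with overlapping ranges in wild type, were 13.7-fold apart in mean in leukemia.

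Against all genes, the 4 lay at different places in the 2 steps. Of 11173 genes whose mean over the 11 libraries reached 1 FPKM, 25.4% had means that fell over the 3 groups, and 2.39% (267 genes) fell with no overlap of libraries at either step, as all 4 did. For Ebf1+/- minus wild type on the log2(FPKM + 1) scale, which understates changes of low genes, Reln ranked first of the 11173, Adam19 was 9th, Edem3 37th and Fam63b 71st, counted from the largest fall. For leukemia minus Ebf1+/- the ranks were 167 for Adam19, 636 for Fam63b, 1637 for Edem3 and 1665 for Reln. The low Reln rank there comes with an Ebf1+/- level under 1 FPKM, where the added 1 hides most of the fold. In the first step the log2 differences were -3.17, -1.81, -1.05 and -1.19 for Reln, Adam19, Fam63b and Edem3. In the second they were -0.67, -3.02, -1.59 and -0.68. Of the 267 genes, 28 fell by at least 1 on this scale at each step, among them Adam19 and Fam63b.

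**Figure D2:**
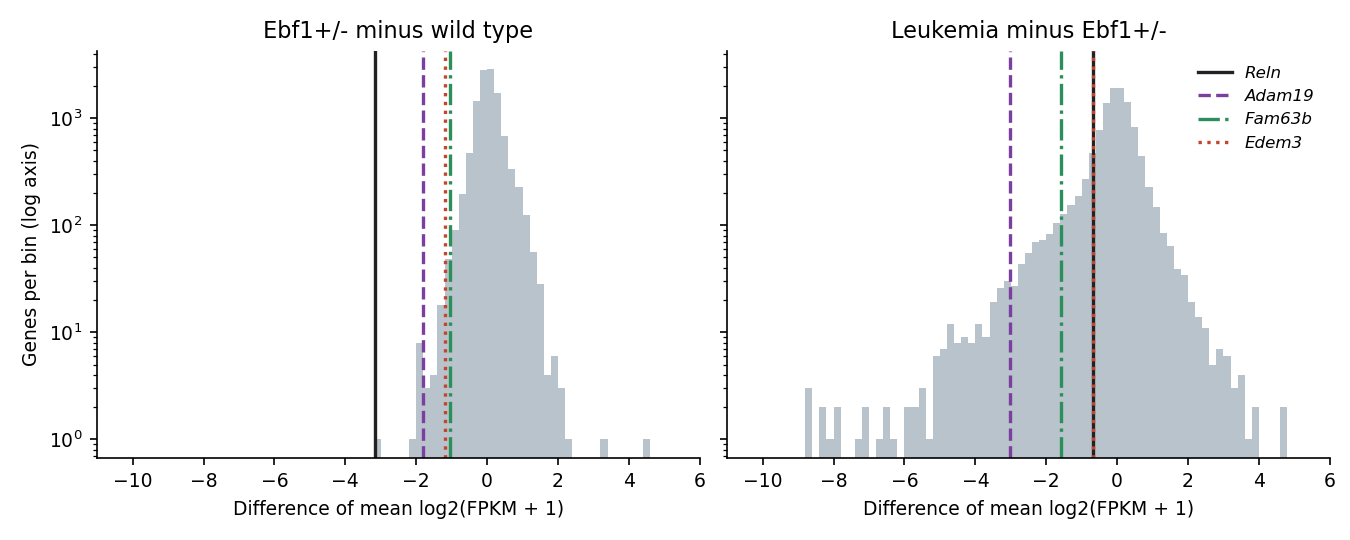
Number of genes (log axis) by difference of mean log2(FPKM + 1) for the 11173 genes that averaged 1 FPKM or more, in bins of equal width; lines mark the 4 genes. Reln (-3.17) is at the lower end of the first step and, with Edem3, at -0.67 and -0.68 near the shoulder of the second, where Adam19 (-3.02) is the farthest of the 4.

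The share of non-overlapping falls differed between comparisons: 8.1% of tested genes for Ebf1+/- against wild type, 16.2% for leukemia against Ebf1+/- and 25.1% for leukemia against wild type. Limma called 20.7% of genes higher (2267 genes) and 24.1% lower (2647 genes) in leukemia than in wild type, a split that quantile scaling turned to 2621 and 2381. Against Ebf1+/-, it called 9.31% higher (1039 genes) and 12.3% lower (1370 genes) in leukemia, and here quantile scaling gave 1530 and 1141. For Ebf1+/- against wild type, limma called 0.0% higher and 0.0% lower of 11167 genes, with 863 at an unadjusted p under 0.05. That last count was 427 without wild-type library 1, 511 without wild-type library 2, 1374 without Ebf1+/- library 2 and 1800 with a replicate block. Reln, with a mean under 1 FPKM over the Ebf1+/- and leukemia libraries, did not enter the fit of leukemia against Ebf1+/-, and the other 3 passed the filter in all comparisons.

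The spread within groups played no part in choosing the genes. In wild type, library 1 was highest, library 3 second and library 2 lowest for all 4 genes, an order shared by 16.5% of the 11173 genes. In Ebf1+/-, library 2 was highest for Adam19, Fam63b and Edem3, while Reln was highest in library 3. Across the 6 progenitor libraries, deviations from the group mean correlated at r = 0.98 for Fam63b with Edem3, 0.9 for Adam19 with Edem3 and 0.82 for Adam19 with Fam63b. Reln followed less closely, at 0.71 with Adam19, 0.57 with Edem3 and 0.41 with Fam63b. With the leukemias included (11 libraries), the values were lower, at 0.67 for Fam63b with Edem3, 0.4 for Adam19 with Edem3, 0.63 for Adam19 with Fam63b, and 0.26, 0.54 and 0.31 for Reln with Adam19, Edem3 and Fam63b. The 6 points share the 2 group means they are centred on, and depth and cell makeup are common to all genes of a library, so these values are descriptions. Wild-type library 2, lowest for all 4, and Ebf1+/- library 2, highest for 3, are the pair that resembled each other most across genes.

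**Figure D3:**
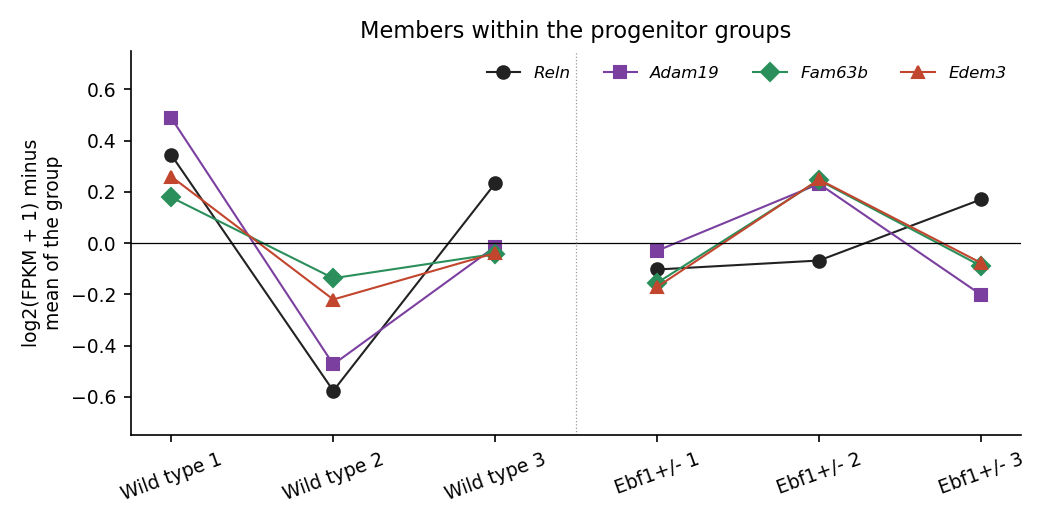
Deviation of log2(FPKM + 1) from the mean of its group (y axis) for the 4 genes in the 6 progenitor libraries (x axis); lines join libraries of a group for legibility, which have no order. Fam63b and Edem3 run together (r = 0.98), and Reln departs from the other 3 in the Ebf1+/- libraries.

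Most partners of reelin were low or did not pass the test. Of 20 genes in the reelin pathway, 12 were tested for leukemia against wild type, with 2 called higher and 2 lower and a median log2 difference of -0.2, beside 20.7% higher, 24.1% lower and a median of -0.04 over all genes tested. Vldlr, a reelin receptor, was under 0.1 FPKM in wild type, at most 0.488 in Ebf1+/- and read in 1 leukemia. Dab1, the adaptor, had 0 reads in all 11 libraries. Lrp8, the other receptor, had means of 2.37 ± 1.15 FPKM for wild type (SD, n = 3), 2.47 ± 1.16 for Ebf1+/- (n = 3) and 2.36 ± 0.436 in leukemia (n = 5), and did not pass (limma adjusted p = 0.908 for leukemia against wild type). Fyn, a Src family kinase that acts on DAB1, rose, from 18.2, 18.0 and 21.6 FPKM in wild type to 43.6, 38.5, 41.5, 52.1 and 47.0 in leukemia. Its log2 difference was 1.17 (SE 0.12, limma adjusted p = 0.000118), with 24.9, 27.2 and 34.5 FPKM in Ebf1+/-.

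Among metalloproteases and their partners, 6 of 13 tested genes were lower and 2 higher in leukemia than in wild type, with a median log2 difference of -0.35. Over all genes tested the shares were 24.1% lower and 20.7% higher, and the median was -0.04. Adam10, a close relative that cleaves many lymphocyte surface proteins, held 121.2, 100.7 and 107.1 FPKM in wild type and 62.4, 76.6 and 94.0 in Ebf1+/-. In leukemia it was at 40.1, 47.3, 33.3, 40.6 and 46.4 FPKM, a log2 difference from wild type of -1.39 (SE 0.13, limma adjusted p = 8.59e-05). Its libraries did not overlap at either step. Adam17, the protease that releases tumour necrosis factor, had means of 25.3 ± 1.37 FPKM for wild type (SD, n = 3) and 21.7 ± 0.635 for leukemia (n = 5). Its limma adjusted p was 0.0527, but 0.0281 with no filter and 0.0469 among genes averaging at least 5 FPKM. In Ebf1+/- its mean was 21.9 ± 3.2 FPKM (n = 3). Adam8, a protease of myeloid cells among others, was at 0.31 to 1.04 FPKM in wild type, 1.09 to 1.95 in Ebf1+/- and 0.189 to 0.537 in leukemia.

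Partners of the proteases moved in both directions. Tspan33, a tetraspanin that escorts ADAM10, fell from 6.35, 16.0 and 27.4 FPKM in wild type to at most 0.155 in leukemia (limma adjusted p = 9.72e-05), while Ebf1+/- cells held 13.9, 10.6 and 29.7. Tspan17, another escort, fell from 1.91 to 2.2 FPKM to 0.0497 to 0.852 (limma adjusted p = 0.00487). Timp3, an inhibitor of metalloproteases, was at 0.751, 3.58 and 5.75 FPKM in wild type and was read in 1 leukemia (limma adjusted p = 0.00403, and 0.103 with all 3 groups in 1 fit). In Ebf1+/- it was at 0.935, 3.75 and 58.2 FPKM. Platelet markers ordered the libraries as Timp3 did in wild type and Ebf1+/-, and as Tspan33 did in wild type but not in Ebf1+/-. Their 8 genes summed to 74.5, 252.8 and 459.0 FPKM in the wild-type libraries, 138.9, 264.4 and 4089.2 in Ebf1+/- and at most 1.33 in leukemia. Erythroid markers (7 of 9 detected) summed to 275.5, 663.3 and 1265.7 in wild type, 547.4, 538.3 and 1200.5 in Ebf1+/- and 142.9 to 304.2 in leukemia, where Car1 was at 0. Tspan33 had the erythroid order of libraries in wild type and in Ebf1+/-. The part of platelet and erythroid cells in the falls of Tspan33 and Timp3 was not tested. Timp2, a related inhibitor, was lower in leukemia than in Ebf1+/- (0.0843 to 0.519 against 1.4 to 3.51 FPKM, limma adjusted p = 0.00837). Tnfsf11, the cytokine RANKL and a substrate of ADAM19, rose from 0.242 to 0.528 FPKM in wild type to 5.63 to 27.4 in leukemia (limma adjusted p = 0.000215).

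Of 26 deubiquitinases tested, 5 were higher and 6 lower in leukemia than in wild type, with a median log2 difference of -0.03. These shares are near the 20.7% and 24.1% over all genes and are no result about the list. Otub2, an ovarian tumour family deubiquitinase, was at 49.3, 37.3 and 30.4 FPKM in wild type and 22.6, 22.3 and 10 in Ebf1+/-. In leukemia it held 1.33, 4.17, 2.99, 1.89 and 1.63 FPKM, with a log2 difference from wild type of -3.59 (SE 0.27, limma adjusted p = 3.41e-05). Tnfaip3, the NF-kB inhibitor A20, fell from 13.0 to 17.0 FPKM to 3.24 to 8.65 (limma adjusted p = 0.00555), with 9.06 to 10.9 in Ebf1+/-. The nearest relatives of Fam63b differed less between groups in mean. Fam63a (Mindy1) had means of 12.4 ± 0.883 FPKM for wild type (SD, n = 3) and 9.54 ± 0.978 for leukemia (n = 5). This call at limma adjusted p = 0.0272 was lost under several alternatives, up to 0.311 with all groups in 1 fit. In Ebf1+/- its mean was 19.2 ± 11.6 FPKM (n = 3), with 32.6 in library 3. Fam188a (Mindy3) averaged 8.77 FPKM in wild type and 7.2 in leukemia (limma adjusted p = 0.194), and 10.3 in Ebf1+/-.

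Genes of glycan trimming and degradation in the endoplasmic reticulum, the setting of Edem3, numbered 32 tested, of which 5 were higher and 10 lower in leukemia than in wild type. Their median log2 difference was -0.08, beside -0.04 and shares of 20.7% higher and 24.1% lower over all genes tested. Edem1, a relative of Edem3, was at 21.9 to 23.6 FPKM in 5 of the 6 progenitor libraries, with 46.3 in Ebf1+/- library 3, and lower in leukemia at 11 to 13 (limma adjusted p = 0.000125 against wild type). Edem2, the third member of the family, had means of 16.9 ± 0.722 FPKM for wild type (SD, n = 3) and 17.1 ± 1.78 for leukemia (n = 5). Its log2 difference between these groups was 0.01 (SE 0.1, limma adjusted p = 0.945). In Ebf1+/- its mean was higher, at 23.3 ± 4.87 FPKM (n = 3). Txndc11, a thioredoxin-domain protein known to act with EDEM proteins, was at 84.3, 55.4 and 54.4 FPKM in wild type, 36, 33.5 and 25.7 in Ebf1+/- and 12.3 to 13.5 in leukemia. Its log2 difference from wild type was -2.19 (SE 0.14, limma adjusted p = 1.49e-05).

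Herpud1, a stress-induced scaffold of the degradation complex, fell from 256.8, 186.2 and 173.1 FPKM in wild type to 37.3 to 80.5 in leukemia (limma adjusted p = 0.000334), with 148.1, 101.7 and 80.7 in Ebf1+/-. Man1b1, another mannosidase, averaged 31.1 ± 2.22 FPKM in wild type, 27.3 ± 4.27 in Ebf1+/- and 23.6 ± 3.34 in leukemia. Leukemia against wild type was called (limma adjusted p = 0.0269), a call lost when wild-type library 1 or 3 or leukemia library 3 was left out. Sel1l, the adaptor of the ubiquitin ligase complex, averaged 16.4 FPKM in wild type, 15.4 in Ebf1+/- and 13.9 in leukemia (limma adjusted p = 0.118 for leukemia against wild type).

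Of the 107 genes in the 4 lists, 83 were tested for leukemia against wild type, with 14 higher (16.9%, beside 20.7% of all genes) and 24 lower (28.9%, beside 24.1%). For leukemia against Ebf1+/- 8 of 84 were higher and 10 lower, beside 9.31% and 12.3% of all genes. For Ebf1+/- against wild type limma called 0 of 84, with 9 at an unadjusted p under 0.05, beside 863 of 11167 genes. The 3 comparisons share groups and are not independent.

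**Figure D4:**
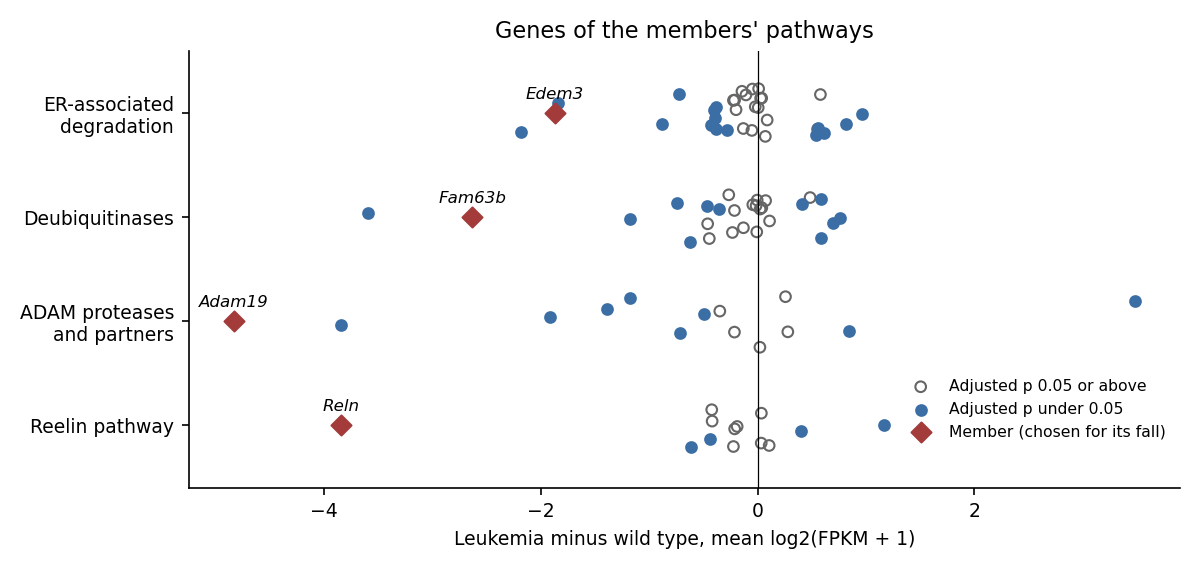
Difference of mean log2(FPKM + 1), leukemia minus wild type (x axis), for the tested genes of the 4 pathway lists (rows, spread vertically for legibility); filled points passed limma at an adjusted p under 0.05 and diamonds are the 4 chosen genes. Most pathway genes lie near 0, and Otub2 (-3.59) and Tspan33 (-3.84) are the 2 that fell furthest.

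Genes with the most similar pattern were ranked by Pearson correlation of log2(FPKM + 1) over the 11 libraries among 10532 genes, a likeness that group differences largely set. For Reln these were Amigo1 (r = 0.977), Gk5 (0.972) and Lrrc10b (0.971). Amigo1, which encodes a neuronal adhesion protein, was at 10.2, 6.72 and 7.78 FPKM in wild type, 1.44 to 2.0 in Ebf1+/- and 0.902 to 1.83 in leukemia, so that the last 2 groups overlapped. Only 6 genes reached r = 0.95 with Reln, against 83 for Adam19, 144 for Fam63b and 42 for Edem3.

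Adam19 was nearest to Mturn (0.987), Gclc (0.985) and Glcci1 (0.985), and Fam63b to Nuak1 (0.994), Glcci1 (0.99) and Rrm2b (0.989). Mturn, at 16.4, 10.2 and 10.6 FPKM in wild type and 0.354, 0.187, 0.79, 0.16 and 1.16 in leukemia, had library 5 as its highest leukemia, as Adam19 did. Nuak1, which encodes a kinase related to AMPK, fell from 17.7 to 25.8 FPKM in wild type to 4.95 to 9.72 in Ebf1+/- and 0.187 to 0.64 in leukemia. Rrm2b, which encodes a ribonucleotide reductase subunit, fell from 37.2 to 58.6 to 16.3 to 24.1 and then 5.24 to 6.81 FPKM. Edem3 was nearest to Gbp9 (0.991), Unc5a (0.984) and Tsc22d2 (0.98). Over deviations from group means in 11 libraries, r with Edem3 was 0.97 for Gbp9, which encodes a guanylate-binding protein. It was 0.47 for Unc5a and 0.84 for Tsc22d2. For Reln such values were 0.44 with Amigo1, 0.24 with Gk5 and 0.12 with Lrrc10b. They were 0.79 to 0.82 for the genes nearest to Adam19 and 0.59 to 0.82 for those nearest to Fam63b. These genes were picked for likeness over the same libraries, so likeness within groups is no further support.

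Markers of B progenitors were present throughout. All 13 exceeded 1 FPKM on average in each group, and their sum was 3259.8 to 5224.1 FPKM in wild type, 2481.7 to 6510.0 in Ebf1+/- and 4080.3 to 5390.2 in leukemia. The sum hides opposite shifts: limma called 3 of the 13 higher and 4 lower in leukemia than in wild type, beside 20.7% and 24.1% of all genes. Igll1 was at 165.7 to 352.4 FPKM in wild type, 220.5 to 732.9 in Ebf1+/- and 551.9 to 936.7 in leukemia. Cd24a was at 772.0 to 1192.8, 595.3 to 1130.5 and 154.4 to 449.5 FPKM. Markers of other cells also moved between groups. The 15 granulocyte markers summed to 633.8 to 3445.6 FPKM in wild type, 2744.1 to 10760.2 in Ebf1+/- and 4.06 to 9.59 in leukemia, where Fcnb was at 0 throughout. The 8 platelet markers summed to 74.5 to 459.0, 138.9 to 4089.2 and 0.382 to 1.33 FPKM, with Gp6 at 0 in all leukemias. From wild type to Ebf1+/- the log2 difference was positive for 15 of 15 granulocyte and 8 of 8 platelet markers. Limma called 0 of them (5 and 0 at an unadjusted p under 0.05). Most tested markers of other blood cells were positive too: monocyte 6 of 6, dendritic 7 of 7 and erythroid 7 of 7. The same held for natural killer (6 of 6) and T cell (7 of 8) markers. Of the B progenitor markers 4 of 13 were positive, beside 6034 of 11167 genes.

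The sum of stromal and endothelial markers moved in the direction of the 4 genes, but not every marker did. Their 10 genes summed to 75.0 to 140.1 FPKM in wild type, 51.2 to 86.4 in Ebf1+/- and 25.3 to 42.9 in leukemia, and Ccl21a was at 0 in all libraries. Pecam1, also made by leukocytes, carried most of the sum in all libraries but wild-type library 3. All 4 tested markers had negative differences for Ebf1+/- against wild type (0 called by limma, 0 at an unadjusted p under 0.05), beside 5133 of 11167 genes. For leukemia against wild type only 3 of the 10 were tested, Pecam1 among them. Limma called all 3 lower in leukemia, beside 24.1% of all genes. Of the untested markers, Pdgfrb ranged higher in Ebf1+/- (0.362 to 1.26 FPKM) than in wild type (0.2 to 0.65). So did Cxcl12 (0.488 to 1.51 against 0.176 to 1.05) and Lyve1. Col1a1, a fibroblast collagen, was 1.55, 9.33 and 50.3 FPKM in the wild-type libraries, lowest in library 1, where all 4 chosen genes were highest. Pecam1, at 69.9, 57.6 and 50.4 FPKM, was highest in library 1. Lyve1 and Prox1, of lymphatic endothelium, a known source of reelin, were at most 0.265 and 0.0654 FPKM in wild type, where Reln was at 8.71 to 17.4. In Ebf1+/- library 3 Lyve1 was at 1.61 FPKM and Reln at 0.808. The part of other cells in the falls was not tested.

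**Figure D5:**
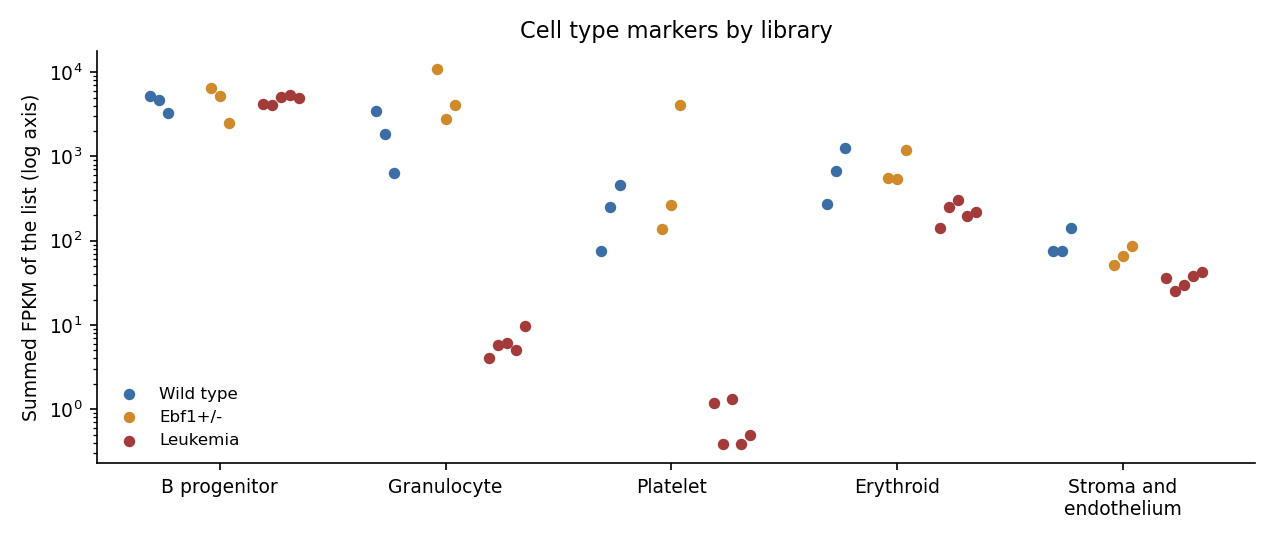
Summed FPKM (log axis) of 5 marker lists in each of the 11 libraries, in order of replicate number within a group. B progenitor sums overlap between groups, granulocyte and platelet sums are lowest in leukemia (4.06 to 9.59 and 0.382 to 1.33), and stromal and endothelial sums fall to 25.3 to 42.9 in leukemia.

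Annotated genes overlap 3 of the 4: 7 lie within or across Reln (4 on the opposite strand), 3 across Adam19 (2 opposite) and 1 opposite Fam63b, while Edem3 has none. Of these 11, 0 are in the deposited table under the GENCODE symbol, and without stated strand their reads cannot be told apart from those of the 4 genes.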

How the data were processed

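The authors deposited 1 table of FPKM values for 11 libraries. For wild type and leukemia the listed tool was BWA 0.7.12, and for Ebf1+/- TopHat2 and Cufflinks, on mm10 (GRCm38), per the submitters' processing notes. Which counter, annotation and strand setting were used is not given in the sources used here. Of the identifiers, 27 were bare numbers and were not named. For all 17380 genes above 0, the values were whole reads within 0.001 read once a gene length and library totals were found, so reads and depth (8.51 to 15.31 in units of 1e6) could be recovered.

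The tests, two-sided, used limma 3.58.1 under R 4.3.3, with eBayes and a trend, on log2(FPKM + 1), with only the 2 groups compared, genes averaging at least 1 FPKM in them, and Benjamini-Hochberg adjustment over all genes tested, called under 0.05. Checked on simulated data, the fits recovered planted changes. Those data had the same spread setting for all genes, with no pairing and no shifts in cell makeup, so they do not measure power in these libraries. The 4 genes, the 4 pathway lists and the 9 marker lists were chosen with earlier results of these data known. Named were the 4 genes, Pax5 and Ebf1, fixed relatives, up to 4 called genes of each list, direction and comparison with a log2 difference of at least 1, the 3 most similar genes of each member, and marker sums with the first marker. Other markers and other pathway values were chosen after they were seen. The wild-type and Ebf1+/- replicate numbers were taken to pair, since deviations of same-numbered libraries correlated at 0.65, 0.32 and 0.69, although the labels name no shared day. The main fits and their adjusted p-values did not use this pairing, which entered only in the replicate block. Promoter letters came from RefSeq and the gene positions from GENCODE. Alternatives covered the pseudocount, filters, scaling, all groups in 1 fit, a replicate block and left-out libraries. Leaving out both libraries numbered 2 was added after the data were seen. Python 3.11.15, NumPy 2.4.6, pandas 2.3.3, SciPy 1.17.1 and Matplotlib 3.10.9 were used.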

Additional observations from a re-analysis of the deposited data

Results flagged for a closer look

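In 3 of 28 genes checked, leukemia library 5 lay far from the other 4. Adam19 was at 3.82 FPKM there, with 0.414 FPKM in the next library. The rule took the gap to the next library over the range of FPKM, 0.9 here against a limit of 0.71. It flags about 1 in 20 groups of normally distributed values. FPKM not put on a log scale is skewed and 28 genes were checked, so that rate does not hold here. Vldlr was at 0.0252 FPKM and Timp3 at 0.0298 FPKM, both with 0 reads in the other 4 leukemias and with at most 3 reads in library 5, which is within the limit that a count of 0 allows. With the others at 0, any read would set a library apart, so these last 2 carry no weight.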

How the results depend on the processing

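The falls of Reln, Adam19, Fam63b and Edem3 kept their direction under every pseudocount, scaling and left-out library tried. The genes were chosen for these falls and their groups do not overlap. No pseudocount or left-out library could therefore have reversed the direction, and only the sizes are informative. With a pseudocount of 0.1, log2 differences were -6.94 for Reln, -6.41 for Adam19 and -2.86 for Fam63b in leukemia against wild type, -4.27 for Reln in Ebf1+/- against wild type, and -2.67, -4.53 and -1.77 for Reln, Adam19 and Fam63b in leukemia against Ebf1+/-, which shows how the added 1 holds down low values. Quantile scaling gave -0.41 for Reln in leukemia against Ebf1+/-. Leaving out wild-type and Ebf1+/- libraries numbered 2 gave -1.24 for Fam63b and -1.43 for Edem3 in Ebf1+/- against wild type.

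For Ebf1+/- against wild type, limma called 3 genes with a pseudocount of 0.1, 1 with quantile scaling, 23 when 1 fit held all groups, 0 under a replicate block, and 0 to 5 with 1 library left out, the 5 without Ebf1+/- library 3. For leukemia against Ebf1+/-, a replicate block lowered the genes called from 2409 to 943 and the pathway genes from 18 to 4. The leukemia numbers do not pair with the progenitor numbers (correlations of deviations -0.13 to 0.07). With 1 library left out, 1697 to 2640 genes and 11 to 21 pathway genes were called, the 11 without Ebf1+/- library 3. The cause of these changes was not tested. Of 926 alternatives over 62 differences of single named genes, 873 kept direction and side of the threshold, 44 lost the call and 9 gained one. Levels under 3 reads, as for Reln in leukemia, are not resolved at this depth.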
